A study of Mus musculus with 2 samples.

Results

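The genes described here are 6 caspases, Casp1, Casp2, Casp4, Casp6, Casp8 and Casp9, and Apaf1, which encodes the scaffold that activates caspase-9. They were chosen by gene symbol, with no measured value in the rule but with earlier results of these data known. They are 7 of the 32285 genes counted in each library. Their RNA was measured by droplet-based 3′ single-cell sequencing in mouse bone marrow, with 1 library labelled control (Ctrl) and 1 labelled Map4k4-cKO (cKO, below always the library so labelled), in a study that asked how loss of the kinase gene Map4k4 affects neutrophil differentiation. Each library was a mixture of c-Kit-enriched marrow cells and red-cell-lysed marrow in a ratio of 2 to 3 parts, from mice labelled 13 to 14 weeks old.

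The cKO mice were C57BL/6-backcrossed Mx1-Cre Map4k4 f/f animals given poly I:C, which induces the interferon-driven Mx1 promoter and so the Cre. The methods place these repeated injections some weeks before the experiments. The methods write the control littermates as Mx1-Cre Map4k4-/-, so the Cre transgene was shared by both groups. Whether the controls were injected, and how many mice each library held, is not given in the sources used here. Poly I:C is itself an interferon inducer, and Casp1, Casp4 and several of their partners are interferon-responsive genes. Treatment and genotype therefore cannot be told apart if the controls were not injected.

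Caspases are cysteine proteases that are made as inactive zymogens and cut their substrates after aspartate. Casp1 and Casp4 (Casp4 is the mouse gene of the protein also called caspase-11) are inflammatory caspases that cleave gasdermin D, and caspase-1 also matures interleukin-1β. Casp8 starts apoptosis from death receptors, Casp9 starts it on the Apaf1 apoptosome after cytochrome c leaves mitochondria, and Casp2 is activated on the PIDDosome after centrosome or genome damage. Casp6 is an executioner caspase that cuts lamins. Mature neutrophils are short-lived cells in which both inflammasome activity and spontaneous apoptosis are well known.

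On GRCm38, Casp1 (ENSMUSG00000025888) lies on the plus strand of chromosome 9 at 5298517 to 5307265. Casp4 (ENSMUSG00000033538) follows it on the same strand at 5308828 to 5336783, 1562 bases further on. Casp8 (ENSMUSG00000026029) is on chromosome 1 at 58795374 to 58847503, and Casp2 (ENSMUSG00000029863) on chromosome 6 at 42264985 to 42282508. Casp9 (ENSMUSG00000028914) is on chromosome 4 at 141793612 to 141815976 and overlaps the antisense genes Cela2a and Ctrc, so its counts depend on strand-aware counting. Apaf1 (ENSMUSG00000019979) is on the minus strand of chromosome 10 at 90989311 to 91082770, and Casp6 (ENSMUSG00000027997) on chromosome 3 at 129901425 to 129914103.

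RefSeq promoter windows of GRCm38.p6 matched all 7 genes, and the 250 bases before each start were searched on both strands for 9 short motifs. The windows of Casp1 and Casp4 are shown because these neighbours were the genes that stood highest in the late neutrophils of the cKO library relative to Ctrl, and that of Casp2 because it stood lowest in imNeu-like cells. Capitals mark matches to the NF-kB core GGGANTTCC, the E2F core TTTCCCGC and, in Casp2, the CCAAT box. The windows are chr9:5298267-5298516 for Casp1, chr9:5308599-5308827 for Casp4 and chr6:42264735-42264984 for Casp2, all on the plus strand. The Casp4 window is printed up to the base before the GENCODE gene start and is 229 bases long.
Casp1: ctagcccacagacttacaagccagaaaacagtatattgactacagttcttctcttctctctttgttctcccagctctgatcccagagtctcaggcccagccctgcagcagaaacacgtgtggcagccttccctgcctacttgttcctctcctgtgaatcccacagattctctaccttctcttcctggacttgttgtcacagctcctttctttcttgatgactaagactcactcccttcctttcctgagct
Casp4: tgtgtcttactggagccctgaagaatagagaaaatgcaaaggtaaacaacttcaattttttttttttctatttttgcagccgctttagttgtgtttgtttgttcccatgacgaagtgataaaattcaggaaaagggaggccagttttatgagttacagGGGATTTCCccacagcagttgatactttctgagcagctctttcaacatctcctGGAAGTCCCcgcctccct
Casp2: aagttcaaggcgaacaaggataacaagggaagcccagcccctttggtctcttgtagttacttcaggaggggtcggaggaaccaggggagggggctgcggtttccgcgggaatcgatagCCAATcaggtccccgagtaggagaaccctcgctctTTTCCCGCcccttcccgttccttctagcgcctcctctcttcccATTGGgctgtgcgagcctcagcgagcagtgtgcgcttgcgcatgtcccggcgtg

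The Casp4 window held 2 matches to the NF-kB core, GGGATTTCC at 92 to 84 and GGAAGTCCC (the other strand) at 39 to 31 bases before the RefSeq start. At least 1 such match was present in 1.43% of 32851 windows of the same length, and 2 or more in 0.0639%. A second RefSeq start for Casp4 gave an overlapping window with the same 2 matches. The Casp2 window held the E2F core, which 0.895% of windows hold, and 2 CCAAT boxes, which 10.1% of windows hold at least 2 of. Its E2F match at 97 to 90 bases overlaps a GC box (GGGCGG) at 93 to 88 bases. The Casp1 window held no match to any of the 9 motifs, which also included the interferon-stimulated response element core (GAAA, any 2 bases, GAAA), the ETS-IRF composite core (GGAA, any 2 bases, GAAA), the PU.1 core GAGGAAGT, the C/EBP core TTGCNNAA and the STAT core TTCNNNGAA. The other windows held only CCAAT or GC boxes. These matches are letters in a window and say nothing about which factors bind there.

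The deposited tables held 10220 barcodes with 71527701 UMIs (unique molecular identifiers, counted transcripts) in Ctrl and 6872 barcodes with 64393950 UMIs in cKO. After filters on genes, mitochondrial share and at least 1000 UMIs, 8795 Ctrl and 5347 cKO cells remained, with medians of 4940 and 8783 UMIs. The libraries shared 3010 barcodes, 29.5% of the Ctrl and 43.8% of the cKO barcodes. None of these had the same UMI total in both, and 13.8% of the 2104 pairs assigned in both libraries fell into the same class, against 13.9% from the class sizes alone. Cells were gated into classes by marker lists, and markers held out of the gates were higher in their class than in the rest for 53 of 53 in Ctrl and 52 of 53 in cKO. The classes of the neutrophil path are called HSC/MPP-like (stem and multipotent progenitor), ProNeu-like, PreNeu-like, imNeu-like (immature) and mNeu-like (mature). They held 417, 1051, 1094, 1009 and 1470 Ctrl cells and 122, 986, 704, 882 and 1282 cKO cells. No class was gated for granulocyte-monocyte progenitors, which the paper separates from ProNeu. The ProNeu-like class therefore need not match the ProNeu cells of the paper. The PreNeu-like and imNeu-like classes had the same 4 held-out markers, which therefore cannot check the split between them. The 1 held-out marker that was not higher was in cKO ProNeu-like cells, where 2 of 3 were.

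Map4k4, the targeted gene, barely separated the libraries. Its level was 129 counts per 1000000 UMIs of the class (CPM) in Ctrl and 131 CPM in cKO HSC/MPP-like cells, and 154 and 127 CPM in mNeu-like cells. Where these 3′ tags lie relative to the deleted exons was not determined, so the values do not check the labels, and every direction between the libraries below rests on their labels. The paper reports, from a separate RT-PCR assay, that the Map4k4 transcript was lost in stem and progenitor cells after poly I:C. Its figure legend for that assay instead speaks of knockdown efficiency, measured in marrow cells. With 1 library per condition there is no replicate error and no test. Levels are sums of UMIs over the cells of a class and library, given as CPM with exact Poisson 95% intervals. Ratios are log2 with exact binomial 95% intervals, and all intervals cover counting error only.

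Casp1, the interleukin-1-converting enzyme, was lowest in the middle of the neutrophil path in both libraries. The Ctrl levels from HSC/MPP-like through ProNeu-like, PreNeu-like and imNeu-like to mNeu-like cells were 45.7, 40.0, 10.5, 12.7 and 24.8 CPM. In cKO the same stages gave 30.8, 37.6, 12.5, 20.2 and 35.2 CPM. The step from ProNeu-like to PreNeu-like cells was the deepest, with a log2 ratio of -1.93 (-2.23 to -1.65) in Ctrl and -1.59 (-1.85 to -1.33) in cKO, while the median of all measured genes at this step was -0.64 and -0.66. Monocyte-like cells had the highest Casp1 level of the compared classes, 64.5 CPM (57.9 to 71.6) in Ctrl and 52.7 CPM (45.9 to 60.2) in cKO. Erythroid-like cells had the lowest, 4.81 and 3.61 CPM.

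Casp4, the receptor protease for cytosolic lipopolysaccharide, stayed within a narrow range until the last stage and was highest in mNeu-like cells. Its Ctrl levels were 20.2, 22.7, 15.2, 18.9 and 40.2 CPM from HSC/MPP-like to mNeu-like cells. The cKO levels were 20.9, 21.5, 18.7, 21.6 and 49.1 CPM. Its log2 ratio between imNeu-like and mNeu-like cells was 1.09 (0.72 to 1.46) in Ctrl and 1.19 (0.95 to 1.43) in cKO, against all-gene medians of 0.07 and 0.04. Casp4 was thus ranked first in mNeu-like cells among 15 Ctrl and 8 cKO classes with at least 50 cells. In Ctrl its level there was not separated from the next class, Megakaryocyte-like, with an interval of the log2 ratio from -0.08. In cKO it exceeded the next class, Monocyte-like, by 0.77 (0.47 to 1.08). Erythroid-like cells again had the lowest level, 3.21 CPM in Ctrl and 1.31 CPM in cKO.

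**Figure D1:**
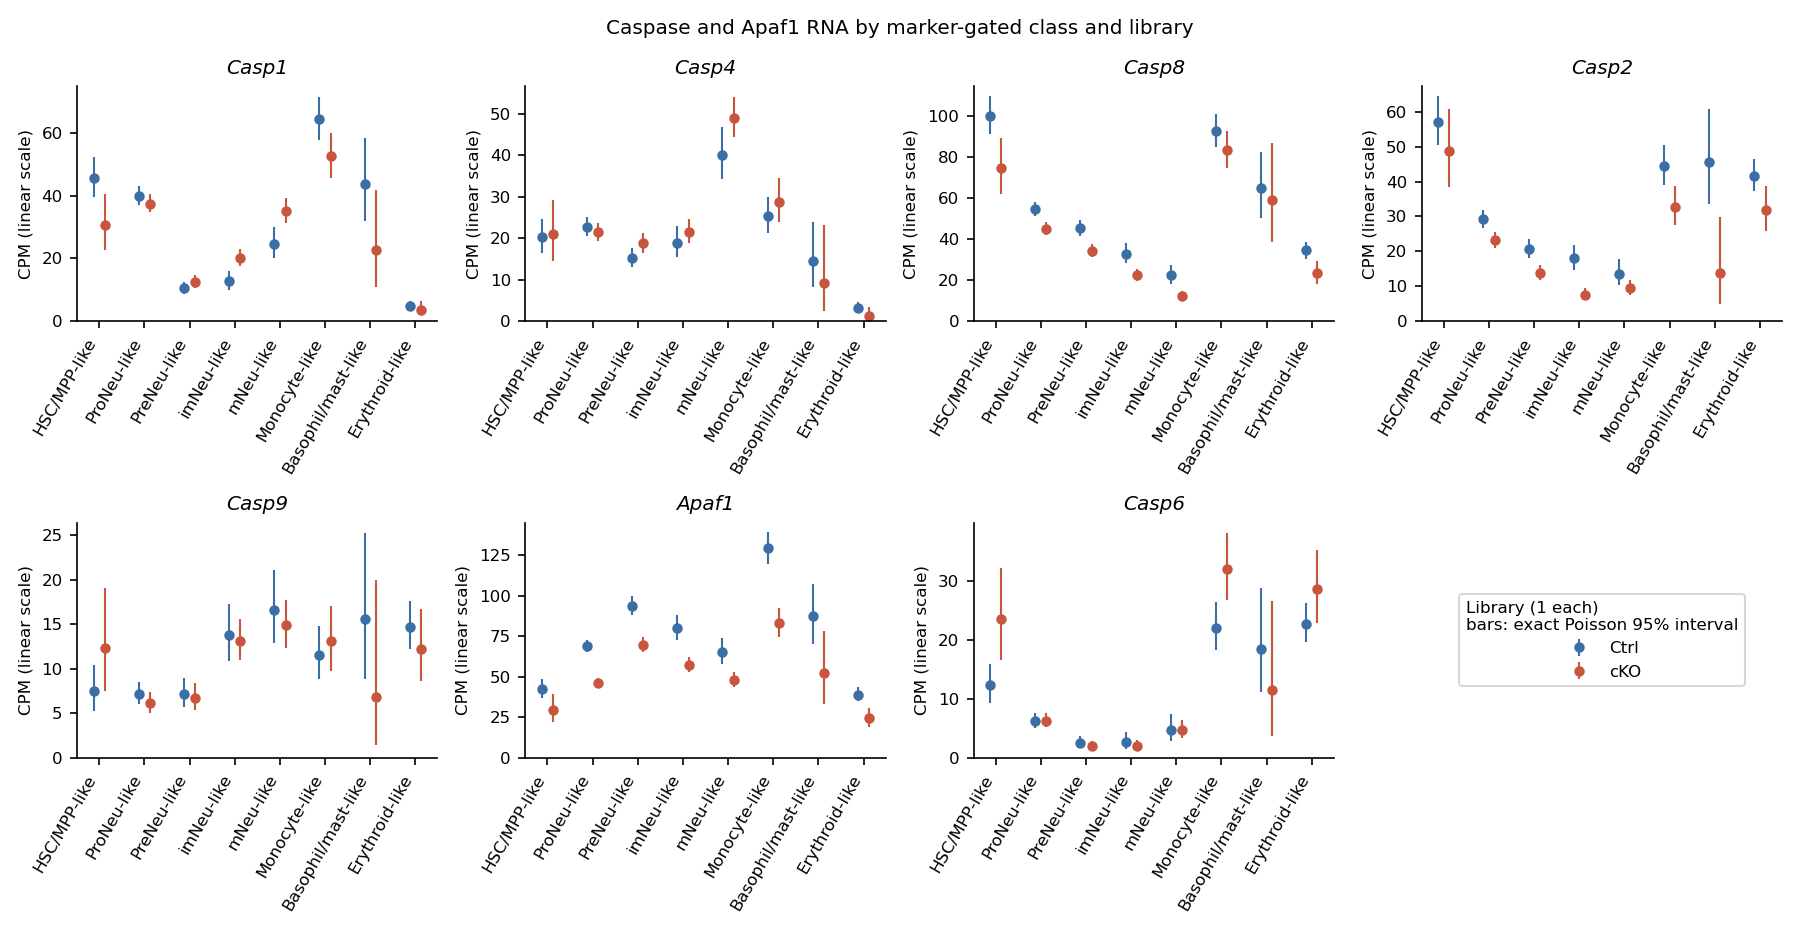
Level of each gene (y axis, CPM on a linear scale starting at 0) in the 8 marker-gated classes with at least 50 cells in both libraries (x axis); blue points are the Ctrl and red points the cKO library, and bars are exact Poisson 95% intervals. Casp8 and Casp2 are lower in mNeu-like than in HSC/MPP-like cells, Casp4 is highest in mNeu-like cells, and Apaf1 is highest in Monocyte-like cells, at 129 CPM in Ctrl and 83.0 CPM in cKO.

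Casp8, the initiator of the death receptor pathway, was lower at each later neutrophil stage in both libraries. In Ctrl it had 100.1 CPM (91.2 to 109.6) in HSC/MPP-like cells, then 54.5, 45.2 and 32.8 CPM, and 22.3 CPM (17.9 to 27.4) in mNeu-like cells. The cKO series was 74.5, 45.1, 34.3, 22.3 and 12.2 CPM. From ProNeu-like to PreNeu-like cells its log2 ratio, -0.27 in Ctrl and -0.39 in cKO, lay above the all-gene medians of -0.64 and -0.66. Monocyte-like cells kept levels near those of HSC/MPP-like cells, 92.6 CPM in Ctrl and 83.5 CPM in cKO, and the intervals of these ratios included 0. T/NK-like cells of Ctrl had 109 CPM (81.5 to 142), from 53 UMIs, which could not be told apart from HSC/MPP-like cells.

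Casp2, the PIDDosome protease, had a similar downward course. Its Ctrl levels were 57.1, 29.3, 20.7, 18.0 and 13.6 CPM, and its cKO levels 48.7, 23.2, 13.7, 7.55 and 9.50 CPM. The cKO values of the last 2 stages were not separated, with a log2 ratio of 0.33 (-0.14 to 0.80). Nor were the Ctrl steps from PreNeu-like to imNeu-like, at -0.20 (-0.56 to 0.15), and from imNeu-like to mNeu-like cells, at -0.40 (-0.90 to 0.09). Unlike Casp1 and Casp4, Casp2 was well represented in Erythroid-like cells, at 41.7 CPM in Ctrl and 31.8 CPM in cKO.

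Casp9 and Apaf1, the 2 of the 7 genes whose proteins act in the apoptosome, did not share a course. Casp9 was sparse, with 7.51, 7.17, 7.17, 13.8 and 16.6 CPM in Ctrl and 12.3, 6.11, 6.73, 13.1 and 14.8 CPM in cKO. Its step from PreNeu-like to imNeu-like cells was 0.94 (0.46 to 1.42) in Ctrl and 0.96 (0.56 to 1.38) in cKO, against all-gene medians of -0.14 and -0.22. Apaf1 instead peaked at the PreNeu-like stage, where it had 93.8 CPM (88.1 to 99.7) in Ctrl and 69.6 CPM (65.0 to 74.4) in cKO. On either side it had 42.3 and 68.9 CPM before, and 80.0 and 65.4 CPM after that stage in Ctrl, and 29.6 and 46.1 CPM before and 57.2 and 48.0 CPM after it in cKO. Monocyte-like cells exceeded this peak by a log2 ratio of 0.46 (0.32 to 0.60) in Ctrl and 0.25 (0.07 to 0.44) in cKO.

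Casp6, the lamin-cutting executioner, was low in granulocytic cells. It had 12.2, 6.21, 2.48, 2.57 and 4.71 CPM in Ctrl and 23.4, 6.23, 1.89, 1.96 and 4.63 CPM in cKO. The PreNeu-like and imNeu-like values rest on only 14 to 27 UMIs each. Monocyte-like cells of Ctrl and cKO were higher, with 22.0 and 32.0 CPM, as were Erythroid-like cells, with 22.7 and 28.6 CPM. Some other Ctrl classes outside the neutrophil path were also low. They had 4.24 CPM in Plasma cell-like, 4.11 CPM in T/NK-like and 3.54 CPM in Macrophage-like cells, from 4, 2 and 1 UMIs.

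Compared end to end, mNeu-like over HSC/MPP-like cells, the 7 genes split. In Ctrl, 3 were at least 1.5-fold higher, a call that 19.5% of 9441 measured genes met, and 4 were at least 1.5-fold lower, a call that 62.8% met. In cKO, 2 were higher against 21.4% of 7984 genes, and 3 were lower against 60.6%. A gene counted as measured with at least 50 UMIs over both sums. The median of all measured genes was -1.30 in Ctrl and -1.13 in cKO, so a CPM ratio near 0 here lies above most genes.

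The genes above that median in both libraries were Casp4 at 0.99 (0.62 to 1.37) and 1.23 (0.72 to 1.78), Apaf1 at 0.63 and 0.70, Casp9 at 1.14 and 0.27, and Casp1 at -0.88 and 0.19. Casp8, at -2.17 and -2.61, and Casp2, at -2.07 and -2.36, were below it in both. So was Casp6, at -1.38 (-2.21 to -0.61) and -2.34 (-3.02 to -1.65). For Casp1 the Ctrl value changed sign, to 0.41, when ratios were centred on the median of all genes. The cKO directions of Casp1 and Casp9 did not hold either: in cells of 2000 to 8000 UMIs, a range chosen after the data were seen, they were -0.12 and -0.72, and Leiden clusters gave -0.03 for Casp1. These restricted cKO ratios rest on 8 and 6 UMIs in HSC/MPP-like cells.

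The cKO library was compared with Ctrl within the 5 neutrophil stages and Monocyte-like cells, the question being whether these genes differ after Map4k4 deletion. Of 42 gene and class pairs, 41 had at least 50 UMIs; 3 were past 1.5-fold higher in cKO and 4 past 1.5-fold lower. The all-gene medians of these ratios were all below 0, from -0.41 in mNeu-like to -0.11 in HSC/MPP-like cells. In HSC/MPP-like cells Casp6 (0.94, 0.30 to 1.55) and Casp9 (0.71, -0.16 to 1.55) were past the threshold upward, a call 4.92% of genes met, and none was past it downward (11.9% of genes). These rest on 38 and 20 cKO UMIs. Casp2, at -0.23 there, was at 0.80 in cells of 2000 to 8000 UMIs, from 17 cKO UMIs. In ProNeu-like cells no gene was past it, against 1.36% of genes upward and 19.5% downward, and Apaf1 at -0.58 (-0.71 to -0.45) fell just short.

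Casp2 was past the threshold downward in PreNeu-like cells, at -0.59 (-0.89 to -0.30), where 20.4% of genes were, and none was past it upward, where 1.28% of genes were. This Casp2 value was -0.28 when centred on the all-gene median, short of the threshold, and -3.26 in cells of 2000 to 8000 UMIs, where cKO had 1 UMI. It was lower still in imNeu-like cells, at -1.25 (-1.70 to -0.81), with 18.0 CPM for Ctrl and 7.55 CPM for cKO, where 29.9% of genes were past it downward. Casp1 was the 1 gene past it upward in imNeu-like cells, at 0.67 (0.27 to 1.09), a call 1.77% of genes met, but it fell short of it under 3 of 9 alternatives, down to 0.39 with Leiden clusters. In mNeu-like cells Casp8 was past it downward, at -0.87 (-1.29 to -0.44), with 33.5% of genes, and none upward, with 2.71%. Centred on the all-gene median, Casp8 was at -0.45 there, short of the threshold. There Casp1 had 0.50 (0.17 to 0.85) and Casp4 0.29 (0.02 to 0.56), both with intervals above 0 and above the all-gene median. In Monocyte-like cells Apaf1 was past it downward, at -0.64 (-0.83 to -0.45), with 17.1% of genes; none was past it upward, with 3.44%. Under 5 of 9 alternatives this value fell short of the threshold, the nearest to 0 being -0.30 in cells of 2000 to 8000 UMIs. Casp6 there had 22.0 CPM in Ctrl and 32.0 CPM in cKO, and its log2 ratio lay between 0.50 and 1.04 over the alternatives.

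**Figure D2:**
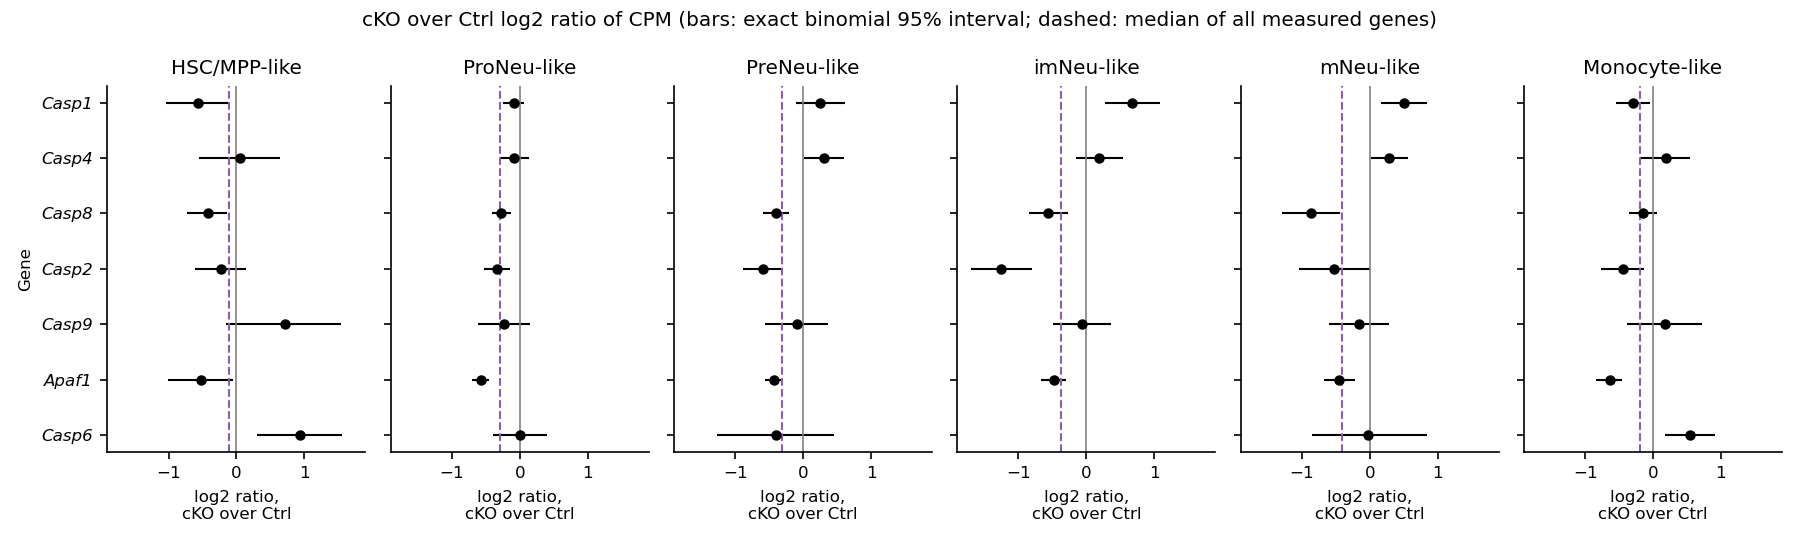
Log2 ratio of CPM, cKO over Ctrl (x axis), for each gene (y axis) in 6 marker-gated classes; points with bars are the ratio and its exact binomial 95% interval, the grey line is 0 and the dashed line the median of all measured genes. Casp1, Casp4 and Casp9 lie right of the dashed line in the ProNeu-like, PreNeu-like, imNeu-like and mNeu-like panels, and Casp8 lies at -0.87 in mNeu-like cells.

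Apaf1 was below 0 in all 6 classes, from -0.64 in Monocyte-like to -0.43 in PreNeu-like cells, and its interval excluded 0 in each. Casp8 was below 0 in all 6 too, from -0.87 to -0.15, and its interval excluded 0 in all but Monocyte-like cells. Centred on the all-gene median, Casp8 lay above it in ProNeu-like and Monocyte-like cells. Apaf1, when so centred, stayed below 0 throughout, but its distance from 0 shrank with the shift of all genes. The centred Apaf1 values were -0.12 (PreNeu-like), -0.11 (imNeu-like) and -0.03 (mNeu-like), against -0.40 (HSC/MPP-like), -0.29 (ProNeu-like) and -0.45 (Monocyte-like). These libraries differed in depth, and the all-gene medians moved in the same direction. Casp9 differed little outside HSC/MPP-like cells, from -0.23 in ProNeu-like to 0.18 in Monocyte-like cells, with every interval including 0.

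A share within the 7 genes does not depend on how the libraries are scaled. The UMIs of Casp1 and Casp4 were therefore also taken as a share of the UMIs of all 7, a measure chosen after the levels were seen. Such a share also rises when the other genes of the 7 are lower, so a gap need not mean more Casp1 or Casp4 RNA. In mNeu-like cells it was 34.6% of 757 UMIs in Ctrl and 48.6% of 1460 UMIs in cKO, a difference of 14.0 percentage points (9.59 to 18.2). In imNeu-like cells it was 17.7% and 29.0%, a difference of 11.4 points (7.92 to 14.7). In PreNeu-like cells it was 13.2% and 19.8%, and in ProNeu-like cells 27.4% and 31.8%. HSC/MPP-like cells showed no such gap, with 23.1% and 21.5% and a difference of -1.58 points (-6.21 to 3.37). Monocyte-like cells had 23.0% and 25.02%. Erythroid-like cells had 4.996% and 3.94%, the lowest of the classes compared. In ProNeu-like cells the share was higher in cKO although Casp1 (40.0 and 37.6 CPM) and Casp4 (22.7 and 21.5 CPM) were not. Apaf1 had 68.9 and 46.1 CPM there, Casp8 54.5 and 45.1 CPM, and Casp6 6.21 and 6.23 CPM. In imNeu-like cells Casp4 had 18.9 CPM (15.4 to 22.9) in Ctrl and 21.6 CPM (18.8 to 24.6) in cKO, with overlapping intervals.

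Depth moved with library in PreNeu-like, imNeu-like, mNeu-like and Monocyte-like cells. Its part in the differences between the libraries was not tested beyond the following. The medians were 9215 UMIs in Ctrl and 16761.5 in cKO PreNeu-like cells, 4922 and 11385 in imNeu-like cells, and 7082 and 11306 in Monocyte-like cells. The mNeu-like cells had medians of 2417 UMIs in Ctrl and 6187.5 in cKO, and 526 of 1470 Ctrl against 59 of 1282 cKO cells had under 2000 UMIs. When cells of 2000 to 8000 UMIs were compared, an alternative added after the data were seen, the difference in share was 13.0 points in mNeu-like and 11.99 points in imNeu-like cells. This range narrowed the depths but did not equalise them. Its medians were 3073 UMIs in Ctrl and 5061 in cKO mNeu-like cells, 4541 and 6013.5 in imNeu-like cells, and 4269 and 2894 in ProNeu-like cells. For mNeu-like cells in this range Casp1 had a log2 ratio of 0.61 and Casp8 one of -0.93. In ProNeu-like cells the difference of 4.35 points turned to -2.23 points in this range of depth, which held 127 cells in each library. A separate Leiden clustering divided mature neutrophils by library: the clusters led by mNeu markers held 1379 Ctrl and 55 cKO cells, 68 Ctrl and 1067 cKO cells, and 645 Ctrl and 574 cKO cells. The clusters led by ProNeu markers were unequal too, with 649 Ctrl and 476 cKO, 206 Ctrl and 786 cKO, and 190 Ctrl and 57 cKO cells.

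**Figure D3:**
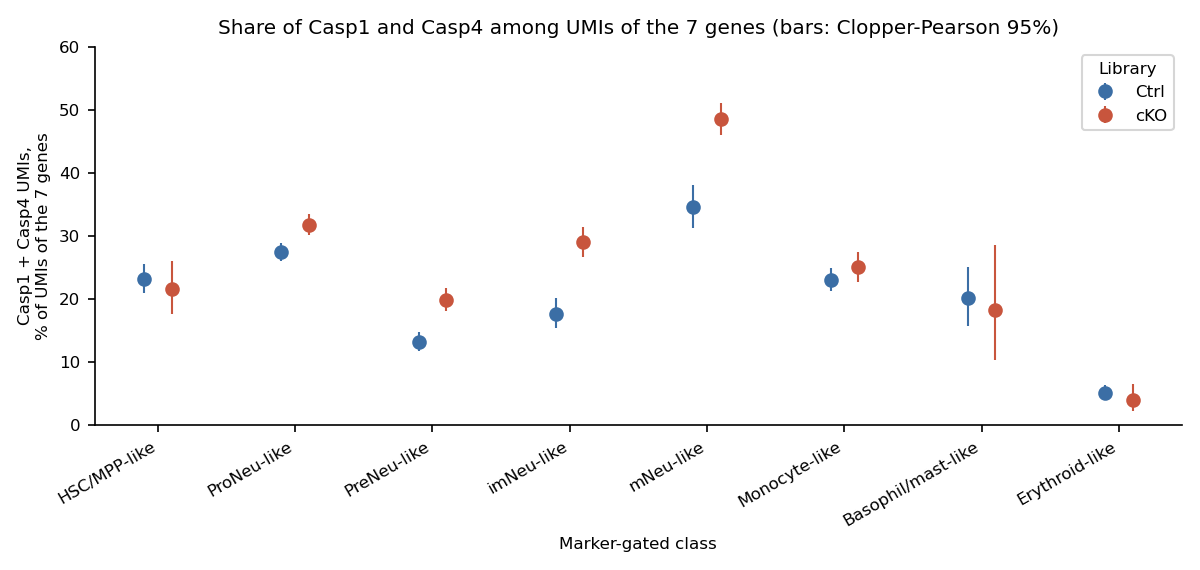
Share of Casp1 and Casp4 UMIs among the UMIs of the 7 genes (y axis, percent) in the 8 classes with at least 50 cells in both libraries (x axis); blue is Ctrl, red is cKO, and bars are exact Clopper-Pearson 95% intervals. The libraries are 14.0 percentage points apart in mNeu-like cells and have overlapping intervals in HSC/MPP-like, Monocyte-like, Basophil/mast-like and Erythroid-like cells.

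Cells with a detected transcript were counted after thinning each cell to 1000 UMIs, so that deeper cells had no advantage. Casp4 was then found in 49 of 1470 Ctrl (3.33%, 2.48 to 4.38) and 65 of 1282 cKO (5.07%, 3.93 to 6.42) mNeu-like cells, with overlapping intervals. Unthinned, the shares were 9.73% and 25.2%. In Erythroid-like cells, the class with the lowest levels, thinned Casp4 was found in 0 of 532 Ctrl cells, which at this thinned depth allows a share of cells with a UMI of up to 0.564%, and in 1 of 147 cKO cells. Unthinned, it was found in 22 of these Ctrl cells (4.14%) and in 4 of the cKO cells (2.72%). Thinned Casp1 was found in 2.24% and 3.12% of mNeu-like cells and in 1.13% and 0.680% of Erythroid-like cells. Thinned Apaf1 was found in 9.14% and 8.24% of PreNeu-like cells. Over 35 gene and stage pairs, 17 thinned shares were higher in cKO. This count has no background, because thinned shares were not computed over all genes. Some pairs rest on few cells, as with Casp6 in 2 of 1094 Ctrl and 2 of 704 cKO PreNeu-like cells.

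How often several of the 7 transcripts were caught in 1 cell differed between stages and libraries, in cells not thinned to equal depth. The medians were 16703 UMIs in Ctrl and 15943 in cKO ProNeu-like cells, and 2417 and 6187.5 in mNeu-like cells. Summed over the 7 genes, the levels were 229 and 186 CPM in ProNeu-like and 188 and 173 CPM in mNeu-like cells. The part of depth in the following shares was not tested. At least 2 of the genes were found in 71.5% of Ctrl and 54.3% of cKO ProNeu-like cells, and in 8.30% and 25.6% of mNeu-like cells. No UMI of any of the 7 was found in 63.1% of Ctrl and 38.1% of cKO mNeu-like cells, and 4 or more of the genes in 0.136% and 1.33%. In ProNeu-like cells 25.02% and 22.1% had 4 or more, but 12.9% of Ctrl and 29.1% of cKO cells had none. There 259 of 986 cKO and 67 of 1051 Ctrl cells had under 2000 UMIs.

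The partners of these proteases were followed through 9 lists of 54 genes, 53 of which were counted. From HSC/MPP-like to mNeu-like cells, 11 of 43 measured genes were at least 1.5-fold higher and 21 lower in Ctrl, beside 19.5% and 62.8% of all genes. In cKO 11 of 36 were higher and 19 lower, beside 21.4% and 60.6%. These shares of all genes are the background of each count in the next sentences. Around Casp1 and Casp4, 3 of 7 inflammasome genes were higher and 2 lower in Ctrl, and 3 and 3 in cKO. Nlrp3, the sensor of ion flux, had 4.08 CPM in HSC/MPP-like and 79.8 CPM in mNeu-like Ctrl cells, a log2 ratio of 4.29 (3.62 to 5.04). Mefv, which encodes pyrin, had 2.53 in Ctrl and 3.59 in cKO. Of the 4 substrates and effectors, 3 were higher in Ctrl and none lower, with Il1b at 7.27 (6.29 to 8.49) in Ctrl and 6.84 in cKO from 8 and 5 UMIs in HSC/MPP-like cells. Gsdmd, the pore-forming substrate, had 1.54 and 1.03. Of the guanylate-binding genes, which open bacteria to caspase-11, 0 of 3 were higher and 2 lower in Ctrl, and 1 and 1 of 2 in cKO. Gbp7 had -1.06 and -0.95 and Gbp2 0.33 and 0.74.

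Around Casp8, 2 of 9 death receptor genes were higher and 5 lower in Ctrl, and 2 and 4 of 7 in cKO. Fas, the receptor, had 4.61 (3.98 to 5.31) in Ctrl and 4.78 (3.55 to 6.40) in cKO, while Ripk3, the necroptosis kinase, had -3.72 and -5.04. Around Casp2, 2 of 4 genes were higher and 1 lower in Ctrl, and 2 and 1 of 3 in cKO. Bid, a substrate that links to mitochondria, had 0.94 and 1.18, and Mdm2, a caspase-2 substrate that restrains p53, had 0.85 and 0.87. Around the apoptosome, all 5 measured genes were lower in both libraries, beside 62.8% and 60.6% of all genes, with Hspd1, a mitochondrial chaperone, at -3.98 and -5.01 and Cycs, which encodes cytochrome c, at -2.86 and -3.42. Htra2 in Ctrl, at -1.02, was above the all-gene median. Of 4 inhibitor of apoptosis genes 1 was higher and 1 lower in each library, Birc3 at 1.41 and 1.43 and Birc6 at -1.87 and -1.94. Of the executioner list, 4 of 6 were lower in Ctrl and 4 of 5 in cKO, and none was 1.5-fold higher, although Dffb, at -0.43 in Ctrl, lay above the all-gene median. Parp1, a classical caspase substrate, had -4.54 (-5.08 to -4.06) and -5.73 (-6.43 to -5.10), and Dffa, the inhibitor of the DNA-cutting nuclease, -1.98 and -1.95. Of the other caspases, Casp12, next to Casp4 on chromosome 9, was measured only in Ctrl, at -5.77. This value rests on 63 UMIs in HSC/MPP-like and 1 UMI in mNeu-like cells.

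**Figure D4:**
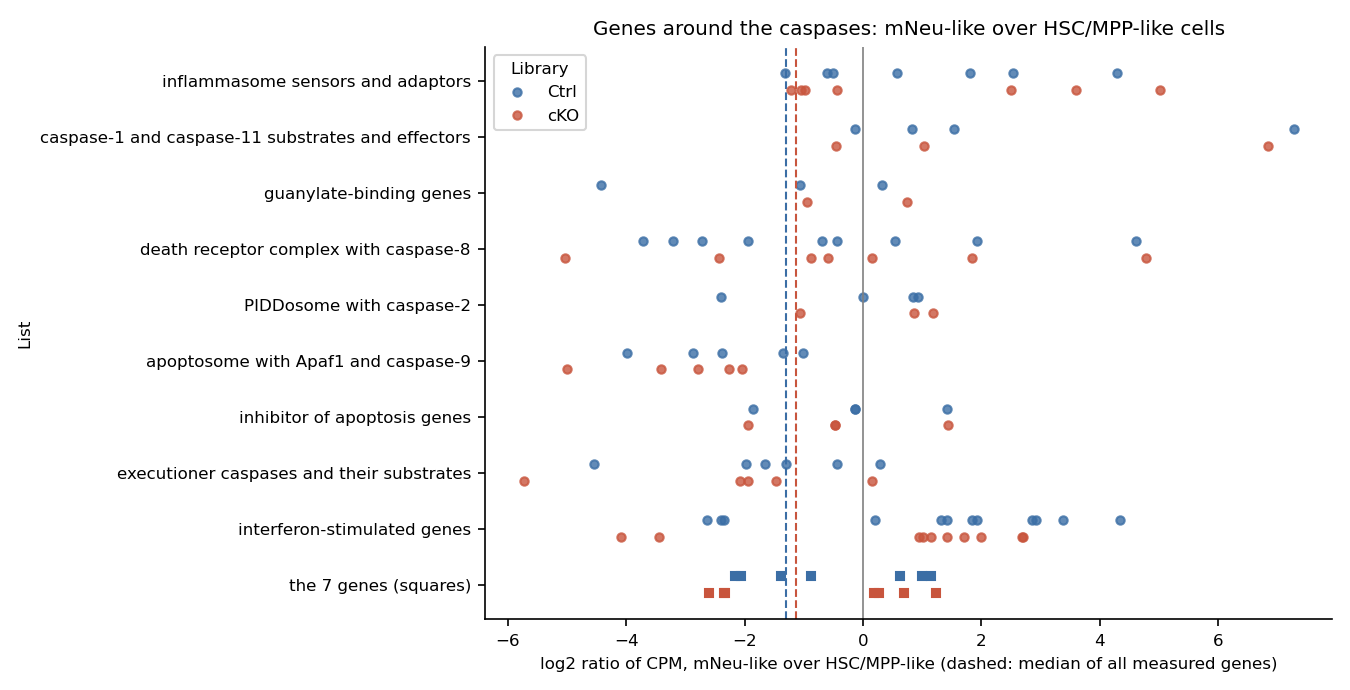
Log2 ratio of CPM, mNeu-like over HSC/MPP-like cells (x axis), in Ctrl (blue) and cKO (red). Circles (rows) are the measured genes of each partner list except the other caspases, and of the interferon-stimulated genes. Squares (bottom row) are the 7 genes, and dashed lines are the all-gene medians, -1.30 in Ctrl and -1.13 in cKO. Genes without a UMI in either class are not drawn; the apoptosome row lies wholly below 0, and Il1b is the point farthest to the right.

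Between the libraries, 0 of 39 measured partner genes were past 1.5-fold higher and 9 lower in mNeu-like cells, beside 2.71% and 33.5% of all genes. Nlrp3 was at -1.004 (-1.23 to -0.78) and Naip5, a flagellin sensor, at -0.89, while Gsdmd and Ninj1, which ruptures the plasma membrane, were at -0.57 and -0.58. Nlrp3 and Naip5 had the ratios farthest from 0 in the inflammasome list, of which 3 of 8 measured genes were lower and whose median of -0.41 equalled that of all genes at this rounding. Cflar, the decoy of caspase-8, was at -0.40, Fas at -0.38, Mdm2 at -0.31 and Cradd, an adaptor of caspase-2, at -0.26. Htra2, a mitochondrial protease, was at -1.17 and Hspd1 at -1.44. Birc2 was at -0.65, Xiap, the inhibitor of caspase-9, at -0.56, Parp1 at -1.73 and Dffb at -1.005. Gbp7 and Gbp2 were at -0.48 and -0.07. The inflammasome list differed by class. Its median was -0.008 in imNeu-like and -0.47 in ProNeu-like cells, against -0.37 and -0.29 for all genes.

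Interferon-stimulated genes were examined because both the deletion protocol and Casp1 and Casp4 are tied to interferon. The list has 12 genes. In mNeu-like cells 7 of 11 measured genes were lower in cKO, beside 33.5% of all genes, and 1, Oas1a at 0.81, was higher, beside 2.71%. Oas1a is named because it was the only one. The list median was -0.79, against -0.41 for all genes. Ifit3 was at -1.39 (-1.74 to -1.04), from 158 Ctrl and 126 cKO UMIs, and Ifi47 at -1.51. Along maturation, 8 of 12 were higher and 3 lower in Ctrl, beside 19.5% and 62.8% of all genes, and 9 and 2 of 11 in cKO, beside 21.4% and 60.6%. Ifit3 had 9 UMIs in Ctrl and 0 in cKO HSC/MPP-like cells, and a limit of 3 UMIs for a count of 0 comes to 1.85 CPM there. Bst2 had -2.63 and -4.10. The part of interferon in the levels of Casp1 and Casp4 was not tested.

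Likeness of pattern was taken as Pearson's correlation of log2(CPM + 10) over the 23 class and library profiles with at least 50 cells, among 8424 genes with at least 1000 UMIs. These profiles share libraries and depth, and the values are descriptions. For Casp1 the most alike genes were Mbnl2 (0.84), Glud1 (0.84) and Arhgap26 (0.84). For Casp4 they were Zfp36 (0.84), Orai1 (0.82) and Bcl10 (0.81). For Casp8 they were Dock10 (0.92) and Znrf2 (0.89), and for Casp2 Csnk2a2 (0.94), Zfp101 (0.92) and Gpatch8 (0.92). Casp9 had the weakest match, Irak2 (0.79), followed by Cnr2 (0.76) and Spg11 (0.75). Apaf1 was closest to Nin (0.87), Kctd20 (0.81) and Tmem165 (0.79), and Casp6 to Oxa1l (0.88), Pdlim1 (0.88) and Fnta (0.87). Among the 7 themselves the closest pairs were Casp2 and Casp6 (0.77), the neighbours Casp1 and Casp4 (0.64), and Casp8 and Casp2 (0.63). Apaf1 and Casp9 had 0.12.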

How the data were processed

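The deposited tables are unnormalized UMI counts for each gene in each barcode that the authors had called as a cell, before their later filters, made per the labels with Cell Ranger 5.0.0 on mm10. Both libraries were used. Cells with 200 to 9000 genes, at most 30% mitochondrial UMIs and at least 1000 UMIs were kept. No doublet caller was run. Each cell took the marker list with the highest mean z-scaled log value, at most 6 per gene, if this was at least 0.5 and led by 0.25; 1585 cells short of the lead and 259 below 0.5 stayed unassigned, which removes cells with markers of several lists, and 641 assigned cells lay within 0.1 of the lead. Secondary-granule cells were split into PreNeu-like and imNeu-like at 567 CPM of cycling genes, with 187 of 3689 cells within 1.25-fold of it. UMIs were summed per class and library; with 1 library per condition no test was made.

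The members and lists were chosen with earlier results of these data known. Named genes were all 7, the 2 genes of each list with the largest maturation ratio and the 2 with the largest cKO over Ctrl ratio in mNeu-like cells, and the 3 genes most alike to each member. Some genes that this rule names are not reported here. The interval code was tested on simulated data. Thinning drew 1000 UMIs per cell with a fixed seed. Alternatives covered gate margin, cell filters, UMI minimum, fold threshold, scaling, Leiden clustering and depth range. Python 3.11.15, numpy 2.4.6, scipy 1.17.1, pandas 2.3.3, scanpy 1.11.5 and leidenalg 0.10.2 were used. Promoter windows came from RefSeq.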

Additional observations from a re-analysis of the deposited data

Results flagged for a closer look

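The cKO over Ctrl log2 ratio of Casp1 lay above 0 in imNeu-like cells (0.67) and mNeu-like cells (0.50) and below 0 in HSC/MPP-like cells (-0.57) and Monocyte-like cells (-0.29), with an interval that excluded 0 in each of the 4 classes. These 4 ratios thus had both signs. Over the alternatives Casp1 stayed between 0.49 and 0.92 in mNeu-like and between -0.63 and -0.34 in HSC/MPP-like cells. It fell to 0.39 in imNeu-like cells with Leiden clusters, and to -0.10 in Monocyte-like cells when centred on the all-gene median. In ProNeu-like cells it was at -0.09, and at 0.20 when so centred. In PreNeu-like cells it lay between 0.16 and 0.56 over the alternatives. With 1 library per condition the difference between classes was not tested.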

How the results depend on the processing

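No paired analysis was possible because each condition has 1 library. Of 633 values recomputed under the alternatives, 559 moved by less than their interval or 1.5-fold in a count, 72 moved further, and 2 that had been past 1.5-fold or had an interval excluding 0 changed sign. Counting ratios of any size, 29 of 473 recomputed ratios, in 17 of 55 gene and comparison pairs, had the other sign. With ratios centred on the all-gene median, Casp1 in mNeu-like over HSC/MPP-like Ctrl cells turned from -0.88 to 0.41. The members lower there went from 4 to 2, and those higher in cKO from 2 to 4. The cKO over Ctrl pairs became 7 higher and 1 lower, the latter being Casp2 in imNeu-like cells. No share of all genes past the threshold was computed under this centring, so these counts have no background beside them. The partner and interferon-stimulated genes together (under the reported settings, 19 higher and 24 lower in Ctrl maturation, 21 lower in cKO maturation, and 1 higher and 16 lower for cKO over Ctrl in mNeu-like cells) then gave 33 higher and 15 lower in Ctrl maturation, 13 lower in cKO maturation, and 5 higher and 8 lower for cKO over Ctrl in mNeu-like cells. At a 2-fold threshold 1 member was higher in each library's maturation, and 0 of these genes were higher and 8 lower in mNeu-like cells. With cells of 2000 to 8000 UMIs, added after the data were seen, 1 member was higher in Ctrl maturation, these genes gave 3 higher and 7 lower, and the Casp1 and Casp4 share differed by -7.14, -2.23 (a change of sign) and 10.4 percentage points in HSC/MPP-like, ProNeu-like and PreNeu-like cells. A gate margin of 0.5 left 1 member higher in cKO maturation and 1 pair higher in cKO, as did Leiden clusters for the pairs. A floor of 2000 UMIs gave 2 of the partner and interferon-stimulated genes higher in cKO mNeu-like cells, and no minimum beyond 1 UMI gave 2 higher and 25 lower. Over these alternatives the share difference stayed between 13.0 and 15.0 points in mNeu-like and between 9.27 and 11.99 points in imNeu-like cells. Depth limits Casp6 and Casp9 most, and 1 library per condition limits every comparison between libraries.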
